A study of Mus musculus with 8 samples.

Results

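The genes described here make ribosomes: they transcribe the ribosomal RNA genes, process and modify the transcript, and assemble the small and large ribosomal subunits. They were chosen as 36 gene symbols, each read from its probe set with that symbol alone and, where there was more than 1, from the probe set with the highest mean over the 8 arrays. Of these, 35 were measured, out of 19938 genes on the array, and 1 was not analysed here. The cells were mouse embryonic fibroblasts, FVB/N background, from Daxx knockout animals, so every array came from cells that lack the gene in its own place. In 4 samples they had been complemented with a vector (titles Daxx-/- MEFs, replicates 1 to 4) and in 4 with Daxx, titled DaxxA (2 samples) and DaxxB (2 samples). Daxx is a chaperone of the histone variant H3.3 and a transcriptional regulator, and the study asked which genes lie downstream of it. The letters A and B are not explained in the labels, and neither clones nor independent cultures are mentioned, so the p-values measure only how far these samples differ from each other, a spread that may be technical.

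Ribosome synthesis starts in the nucleolus, where RNA polymerase I, brought to the ribosomal DNA by Ubtf and Rrn3, makes a long precursor RNA. Small nucleolar ribonucleoproteins (snoRNPs) modify that precursor, a large particle called the small subunit processome folds and cuts it, and separate assembly factors build the large subunit. The pathway is best known as a target of Myc and of growth signalling, and fast-growing cultured fibroblasts use it heavily. Total RNA was hybridised. The values come from probe sets with the factors' gene symbols, so they report the messenger RNAs of the factors, not ribosomal RNA itself.

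Values are log2 signals, and changes are the mean of the Daxx arrays minus the mean of the vector arrays, with a standard error (SE), over 4 arrays against 4 unless stated. A gene is said to have risen or fallen when its adjusted p in limma was below 0.05. Vector replicate 2 stood apart: its interquartile range over all probe sets was 2.79 against 3.31 to 3.39 in the other 7 arrays, and its median over 1027 olfactory receptor genes was 5.21 against 4.65 to 4.70. Results are therefore given also on 7 arrays, without that replicate. The Daxx probe set read 7.34, 6.85, 7.27 and 7.16 in the vector arrays and 7.35, 7.36, 7.46 and 7.23 in the Daxx arrays. That is a change of 0.20 (limma adjusted p = 0.46), so it does not check the labels, and directions below rest on them. Of 15 fibroblast markers 13 lay above 6.07, the level under which 95% of the olfactory receptor genes fell, with Lum and Fap below it. Of the markers of other cell types, 5 of 11 epithelial, 3 of 8 endothelial and 4 of 8 blood genes also lay above it, while the defining Epcam, Cdh1, Pecam1, Cdh5 and Ptprc lay below. No epithelial, endothelial or blood marker of the 27 measured passed the test (0 also at an unadjusted p below 0.05 in limma).

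Among the 35 genes 1 fell, Rasl11a, and 1 rose, Fcf1, while 33 did not pass on 8 arrays. Over all genes 4.52% passed, 1.8% higher and 2.73% lower, so a count of 2 in 35 is near that background. The genes were chosen with earlier results of these data known, among them the fall of Rasl11a. The place of Rasl11a in that count was thus fixed in advance. Most of the others had small values above 0: 28 of 35 changes were positive, against 41.8% of all genes. The median was 0.14, against -0.028 for all genes. All 35 lay above the level under which 95% of the olfactory receptor genes fell, as did only 12974 of the 19938 genes. The set of all genes, here and below, thus held many dim genes, unlike the 35. Whether brighter genes alone had another share or median was not tested. With dim probe sets left out, 7 of the 35 rose and 1 fell, where 10.3% of 12974 genes passed. On 7 arrays, without vector replicate 2, 10 rose and 1 fell, where 12.8% of all genes passed, 5.26% higher and 7.57% lower. There 29 of 35 changes were positive, against 57.1% of all genes, with a median of 0.092 against 0.015. The number of members called thus rested on that array, and on the scaling: with the arrays quantile-normalized again 6 rose and 1 fell, and with each array centred on its median 0 rose and 1 fell. The share of all genes passed moved too, to 7.03% (2.88% higher, 4.15% lower) when normalized again and 3.59% (1.55% higher, 2.03% lower) when centred. When normalized again, 28 of the 35 changes were positive, with a median of 0.12 against 0.0025 for all genes. When centred, 31 were positive, with a median of 0.17 against -0.0057. In these bulk samples, fewer cells of a type and less RNA per cell cannot be told apart.

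**Figure D1:**
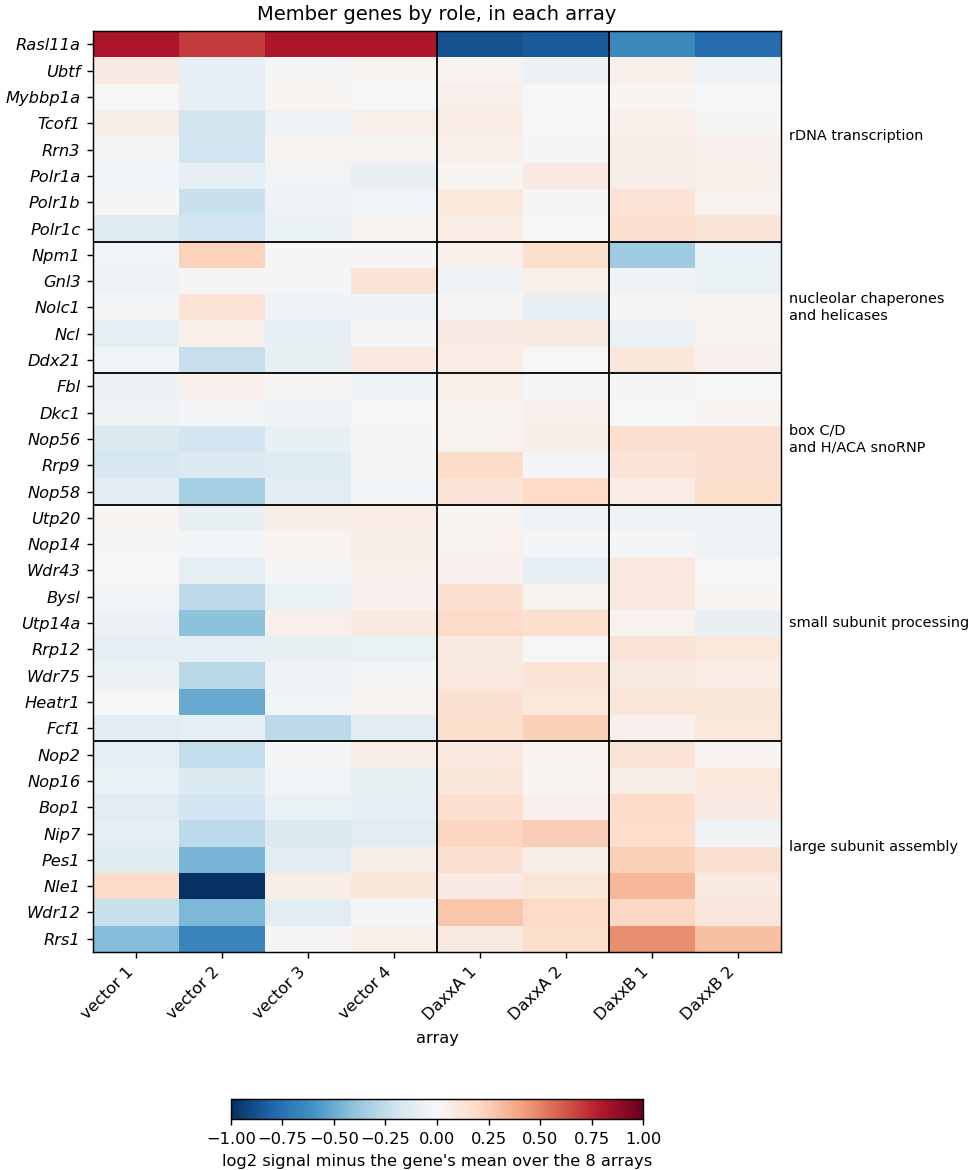
Log2 signal of each of the 35 genes (rows, grouped by role) in each of the 8 arrays (columns), as the difference from the gene's mean over the 8 arrays. Rasl11a is high in the 4 vector arrays and low in the 4 Daxx arrays, and outside that row the lowest cell is Nle1 in vector replicate 2 (6.10).

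The first group of genes acts in transcription of the ribosomal DNA. Rasl11a, a small GTPase-like protein of the nucleolus known to bind Ubtf and to raise precursor ribosomal RNA synthesis, carried the one large change. It read 10.74, 10.63, 10.74 and 10.74 in vector replicates 1 to 4, 9.06 and 9.09 in DaxxA and 9.28 and 9.16 in DaxxB. All 4 Daxx arrays lay far below all 4 vector arrays, a separation toward lower values that 6.79% of all genes showed. It fell by 1.56 on the log2 scale (SE 0.0635, 95% interval -1.71 to -1.42), which is 2.95-fold lower, with a limma adjusted p of 2.02e-05. Its fall was known when the genes were chosen, so its p-value and ranks describe it and are no independent test. Of 19938 genes it had the 10th lowest change and the 2nd smallest p. It passed with each of the 8 arrays left out in turn, and on 7 arrays, without vector replicate 2, it fell by 1.59 (adjusted p = 7.08e-08). An exact two-sided permutation test over the arrays gave p = 0.0286, the smallest that 4 against 4 can give, and 0.193 after adjustment over all genes, so that test cannot call any gene here.

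None of the other 7 genes of this group passed on 8 arrays (2 of them had an unadjusted p below 0.05 in limma) or on 7. Ubtf, the architectural factor that binds the ribosomal DNA and the known partner of Rasl11a, read 11.04, 10.88, 10.95 and 10.98 in vector replicates 1 to 4, 10.98 and 10.90 in DaxxA and 11.01 and 10.92 in DaxxB. The groups overlapped, and its change of -0.0072 had a 95% interval from -0.13 to 0.12 (limma adjusted p = 0.96), the smallest change of the 35, or -0.036 on 7 arrays. Rrn3, which links the polymerase to the promoter in response to growth signals, had a change of 0.078 (adjusted p = 0.659), or 0.025 on 7 arrays. Tcof1, the scaffold protein treacle, had a change of 0.064 (adjusted p = 0.7), and Mybbp1a, a Myb-binding nucleolar protein, of 0.033 (adjusted p = 0.774). On 7 arrays these were 0.013 and 0.01.

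The polymerase subunits among the members had somewhat higher values in the Daxx arrays, none past the test over 8 arrays. Outside the members, 19 other polymerase I subunits and factors had a median change of 0.025, or 0.012 on 7 arrays. On 8 arrays 6 of these 19 had changes below 0 and 13 above. Polr1c, a subunit shared by RNA polymerases I and III, read 9.08, 9.02, 9.14 and 9.24 in vector replicates 1 to 4, 9.28 and 9.20 in DaxxA and 9.37 and 9.34 in DaxxB. Its change of 0.17 (0.14 on 7 arrays) had an adjusted p of 0.233 in limma on 8 arrays, and DaxxA replicate 2 lay below vector replicate 4. The catalytic subunit Polr1a had a change of 0.11 (adjusted p = 0.317) and the second-largest subunit Polr1b of 0.14 (adjusted p = 0.343). Their changes on 7 arrays were 0.096 and 0.094. For both Polr1a and Polr1b the 4 Daxx values lay above the 4 vector values.

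**Figure D2:**
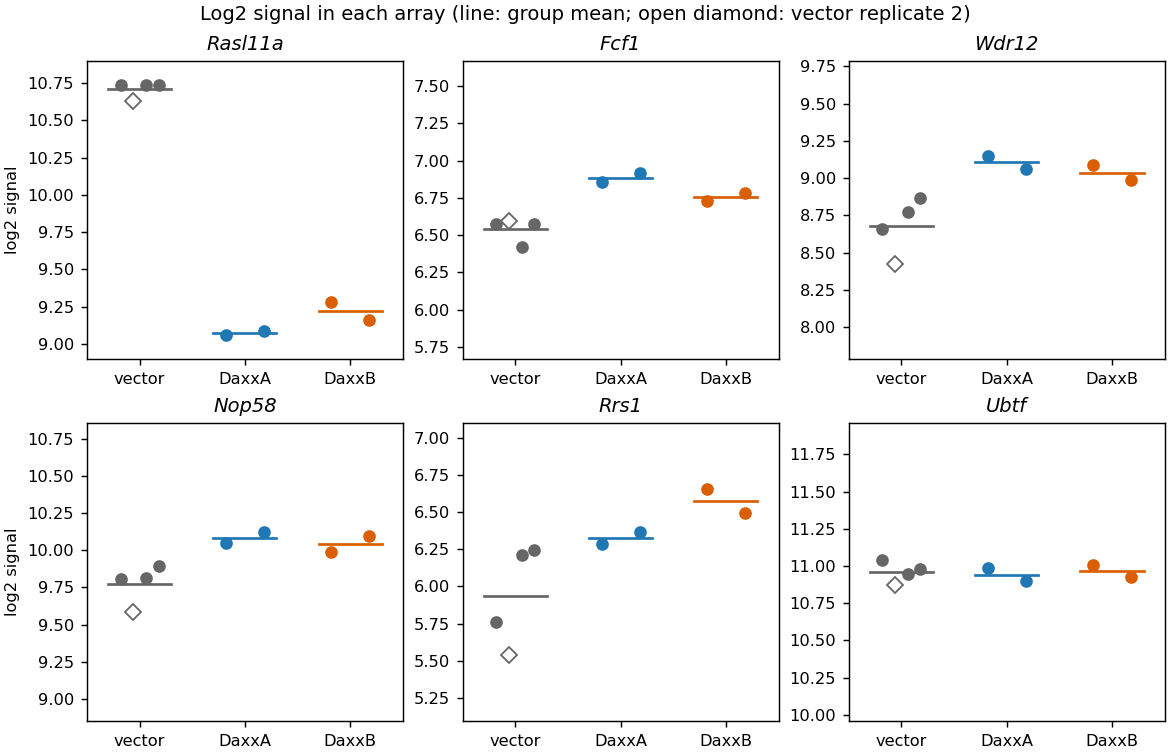
Log2 signal (vertical axis, 2 log2 units in every panel) of 6 genes in each array of the vector (4), DaxxA (2) and DaxxB (2) groups; points are arrays, lines group means, and the open diamond is vector replicate 2. Rasl11a separates by 1.56, the 4 Daxx points of Fcf1, Wdr12, Nop58 and Rrs1 lie above the vector points by much less, and those of Ubtf overlap.

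The promoters of 4 genes are printed because they set the gene that fell beside a core transcription factor of the same system and a pair of subunit assembly genes. They are the 250 bases before the annotated start site, from RefSeq with build GRCm38.p6, 5′ to 3′ on the gene's strand. Capitals mark an E-box, CACGTG, the site that Myc and related factors bind, or an ETS core, CCGGAAG, on either strand.
Rasl11a (chr5:146844821-146845070, plus strand): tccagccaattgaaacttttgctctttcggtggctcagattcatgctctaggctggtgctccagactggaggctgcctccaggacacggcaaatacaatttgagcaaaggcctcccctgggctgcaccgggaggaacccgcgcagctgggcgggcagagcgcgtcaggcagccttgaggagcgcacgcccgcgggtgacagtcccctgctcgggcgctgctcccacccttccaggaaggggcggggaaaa
Rrn3 (chr16:13780449-13780698, plus strand): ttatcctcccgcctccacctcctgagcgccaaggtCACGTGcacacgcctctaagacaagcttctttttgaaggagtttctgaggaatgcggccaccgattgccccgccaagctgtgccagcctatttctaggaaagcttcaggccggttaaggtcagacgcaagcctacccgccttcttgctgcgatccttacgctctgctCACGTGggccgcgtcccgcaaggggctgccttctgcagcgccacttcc
Nop2 (chr6:125131633-125131882, plus strand): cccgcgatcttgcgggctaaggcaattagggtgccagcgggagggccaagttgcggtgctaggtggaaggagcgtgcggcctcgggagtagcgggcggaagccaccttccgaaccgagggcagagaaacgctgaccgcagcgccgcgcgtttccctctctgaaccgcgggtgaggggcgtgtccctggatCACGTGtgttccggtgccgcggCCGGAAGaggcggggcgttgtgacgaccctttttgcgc
Nip7 (chr8:107056627-107056876, plus strand): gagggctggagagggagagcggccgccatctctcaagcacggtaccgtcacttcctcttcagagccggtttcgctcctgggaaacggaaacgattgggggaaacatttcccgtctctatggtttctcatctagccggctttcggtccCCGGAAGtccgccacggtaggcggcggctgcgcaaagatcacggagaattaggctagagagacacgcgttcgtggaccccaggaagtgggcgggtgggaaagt
Within the 250 bases printed, Rasl11a has neither motif, Rrn3 has 2 E-boxes, Nop2 an E-box and an ETS core, and Nip7 an ETS core. Lacking both is the common case in those 250 bases. Among the genes with a window, only Nolc1, Rrn3, Nop2, Polr1c, Heatr1 and Nip7 had either motif there. RefSeq windows of 300 bases, from 250 before to 50 after the start, were at hand for 28 of the 35 genes, some with several start sites. An E-box stood in at least 1 window of 7 of these 28 genes (25%), against 8.09% of 27025 genes with windows. Those 7 were Utp20, Wdr43, Mybbp1a, Rrn3, Nop2, Pes1 and Nle1, of which Pes1 passed the test on 7 arrays and none on 8. Only in Rrn3 and Nop2 did an E-box lie wholly within the 250 bases before the start site. By windows the shares were 20% of 35 and 7.15% of 32851. The ETS core stood in 6 of the 28 genes (21.4%, against 9.93%), Nolc1, Rrn3, Nop2, Polr1c, Heatr1 and Nip7, that of Rrn3 not within the bases printed. The NRF1 core and the YY1 core stood in none of the 28, and in 1.07% and 0.755% of all genes. These are matches of letters within a window, in genes chosen by function, and no binding was measured. Over the 250 bases before the start, G and C made up a median of 57.6% in member windows, against 52.4% in all windows. The part of this base content in the motif shares was not tested.

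The second group holds abundant nucleolar proteins, and none of its 5 members passed on 8 arrays or on 7 (0 of 5 also at an unadjusted p below 0.05 in limma with 8 arrays). Nolc1, a chaperone that escorts snoRNPs, read 10.50, 10.65, 10.48 and 10.47 in vector replicates 1 to 4, 10.53 and 10.43 in DaxxA and 10.53 and 10.54 in DaxxB. Vector replicate 2 was the highest of the 8, the other arrays overlapped, and the change was -0.017 (95% interval -0.15 to 0.12), or 0.025 without that array. Npm1, nucleophosmin, the abundant nucleolar histone and ribosomal protein chaperone, had the lowest change after Rasl11a, -0.10 (limma adjusted p = 0.72), with 12.18 in vector replicate 2 and 11.60 in DaxxB replicate 1 at its ends, and its change was -0.039 on 7 arrays. Ncl, nucleolin, had a change of 0.072, Ddx21, an RNA helicase that couples transcription to processing, of 0.11 (0.055 on 7 arrays), and Gnl3, the nucleolar GTPase nucleostemin, of -0.041.

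The 5 snoRNP proteins all had changes above 0, with a median of 0.21. None passed on 8 arrays (3 of the 5 had an unadjusted p below 0.05 in limma, as did 3076 of 19938 genes). Without vector replicate 2, 3 of the 5 rose, where 5.26% of all genes did. These 3 were of the box C/D class, which guides ribose methylation, but so is every gene of this group except Dkc1. Nop58, a core scaffold of that particle, read 9.81, 9.59, 9.82 and 9.89 in vector replicates 1 to 4, 10.05 and 10.12 in DaxxA and 9.99 and 10.09 in DaxxB. Every Daxx array exceeded every vector array, and the change was 0.29 (SE 0.0733, limma adjusted p = 0.0684), or 0.22 without vector replicate 2 (adjusted p = 0.0109). Nop56, its partner scaffold, read 11.08, 11.03, 11.15 and 11.20 in vector replicates 1 to 4, 11.26 and 11.29 in DaxxA and 11.39 and 11.38 in DaxxB. The groups again did not overlap, with DaxxB above DaxxA, and the change was 0.21 (adjusted p = 0.0987), or 0.19 on 7 arrays (adjusted p = 0.041). Rrp9, the protein specific to the U3 particle, which starts processing of the precursor, read 8.65, 8.68, 8.68 and 8.79 in vector replicates 1 to 4, 8.99 and 8.80 in DaxxA and 8.94 and 8.96 in DaxxB. Here vector replicate 4 and DaxxA replicate 2 nearly touched, and the change was 0.23 (adjusted p = 0.0892), or 0.22 on 7 arrays (adjusted p = 0.0331).

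The other snoRNP proteins had smaller changes. Fbl, fibrillarin, the methyltransferase of the same box C/D particle, read 9.73, 9.84, 9.80 and 9.75 in vector replicates 1 to 4, 9.84 and 9.77 in DaxxA and 9.80 and 9.78 in DaxxB. Its groups overlapped and its change was 0.019 (95% interval -0.10 to 0.13), with 0.090 on its other probe set, and 0.04 on 7 arrays. Dkc1, dyskerin, the pseudouridine synthase of the H/ACA class, differed by 0.048 (limma adjusted p = 0.687), and its 4 Daxx values lay just above the vector values, all 8 within 0.0817.

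Among small subunit factors Fcf1, the nuclease that makes early cuts in the precursor, rose. It read 6.58, 6.59, 6.42 and 6.58 in vector replicates 1 to 4, 6.86 and 6.92 in DaxxA and 6.73 and 6.79 in DaxxB, and no Daxx array reached down to the vector arrays. The change was 0.28 (SE 0.0647, 1.21-fold, limma adjusted p = 0.0477), just inside the threshold, at a signal not far above the dim limit of 6.07. The call was lost with each of 7 arrays left out in turn and was kept without vector replicate 2 (0.30, adjusted p = 0.00801). It was also lost with each array centred on its median and with a trend in the variance.

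Other small subunit factors were near or below it. Rrp12, which acts in maturation and export of the particle, read 8.05, 8.05, 8.06 and 8.08 in vector replicates 1 to 4, 8.23 and 8.15 in DaxxA and 8.27 and 8.25 in DaxxB. The 4 vector values spanned very little and all 4 Daxx values exceeded them, yet the change was small, 0.16 (SE 0.0488, limma adjusted p = 0.115, or 0.0382 on 7 arrays). Wdr75, a subunit of the early complex that also aids transcription, read 9.93, 9.71, 9.95 and 9.98 in vector replicates 1 to 4, 10.09 and 10.12 in DaxxA and 10.08 and 10.07 in DaxxB. Vector replicate 2 was the lowest array, and without it the change went from 0.20 (adjusted p = 0.168) to 0.14 (adjusted p = 0.0464). Heatr1, of the same complex as Wdr75, was also lowest in that array: its change was 0.25 on 8 arrays and 0.12 on 7. The remaining 5, Wdr43 (0.027), Bysl (0.15), Utp14a (0.16), Nop14 (-0.021) and Utp20 (-0.041), had limma adjusted p-values from 0.383 to 0.848. On 7 arrays their changes were 0.0013, 0.092, 0.05, -0.032 and -0.073 in the same order.

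Large subunit factors had the highest median change of the 5 groups, 0.31, and all 8 measured had changes above 0. Yet none passed on 8 arrays (6 had an unadjusted p below 0.05 in limma, against 15 of the 35 genes and 3076 of 19938). Without vector replicate 2 the median was 0.21, close to the 0.19 of the snoRNP proteins. Outside the 35, 50 other large subunit factors had a median of 0.089, or 0.062 on 7 arrays. Bop1, Pes1 and Wdr12 form 1 complex, PeBoW, that processes the large subunit RNAs. Wdr12 read 8.66, 8.42, 8.77 and 8.86 in vector replicates 1 to 4, 9.15 and 9.06 in DaxxA and 9.09 and 8.99 in DaxxB. All Daxx arrays were above all vector arrays, of which replicate 2 was the lowest, and the change was 0.39 (SE 0.0946, 1.31-fold, limma adjusted p = 0.0555), or 0.31 on 7 arrays (adjusted p = 0.00646). The second Wdr12 probe set gave 7.57, 7.18, 7.56 and 7.69 in the vector arrays and 7.97, 8.09, 7.83 and 7.95 in the Daxx arrays, a change of 0.46. It too had no overlap between the conditions.

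The partners of Wdr12 also had higher means in the Daxx arrays. Bop1 read 9.69, 9.61, 9.73 and 9.70 in vector replicates 1 to 4, 9.97 and 9.84 in DaxxA and 9.99 and 9.88 in DaxxB. The lowest Daxx array stood above the highest vector array, and the change was 0.24 (SE 0.0561, limma adjusted p = 0.0523), or 0.21 on 7 arrays (adjusted p = 0.0156). Pes1 read 8.93, 8.58, 8.94 and 9.12 in vector replicates 1 to 4, 9.20 and 9.11 in DaxxA and 9.29 and 9.20 in DaxxB. DaxxA replicate 2 fell just below vector replicate 4, and the change went from 0.31 (adjusted p = 0.183) to 0.20 without vector replicate 2 (adjusted p = 0.0497), which is over 1.5 times smaller.

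Rrs1, which helps to place the 5S ribonucleoprotein in the large subunit, had the highest change of the 35 and a wide spread. It read 5.76, 5.54, 6.21 and 6.24 in vector replicates 1 to 4, 6.29 and 6.37 in DaxxA and 6.66 and 6.49 in DaxxB. Vector replicates 1 and 2 lay well below 3 and 4, whose values were close to those of DaxxA. The change of 0.51 (SE 0.164, 95% interval 0.14 to 0.89) had a limma adjusted p of 0.143, or 0.0636 on 7 arrays, and the signal lay around the dim limit. Nip7, placed here among the large subunit factors, read 7.60, 7.43, 7.54 and 7.58 in vector replicates 1 to 4, 7.90 and 7.94 in DaxxA and 7.87 and 7.66 in DaxxB. DaxxB replicate 2 was close to the vector arrays and the other 3 Daxx arrays were higher, with a change of 0.30 (adjusted p = 0.0583), or 0.27 on 7 arrays (adjusted p = 0.0213).

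Nop2, an RNA methyltransferase, had a change of 0.14 (0.083 on 7 arrays) and Nop16 of 0.15 (limma adjusted p = 0.431 and 0.162). Nle1, which works with a large ATPase to release assembly factors, read 7.28, 6.10, 7.16 and 7.20 in vector replicates 1 to 4, and between 7.17 and 7.42 with Daxx. Its change was 0.31 on 8 arrays and 0.033 without vector replicate 2.

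**Figure D3:**
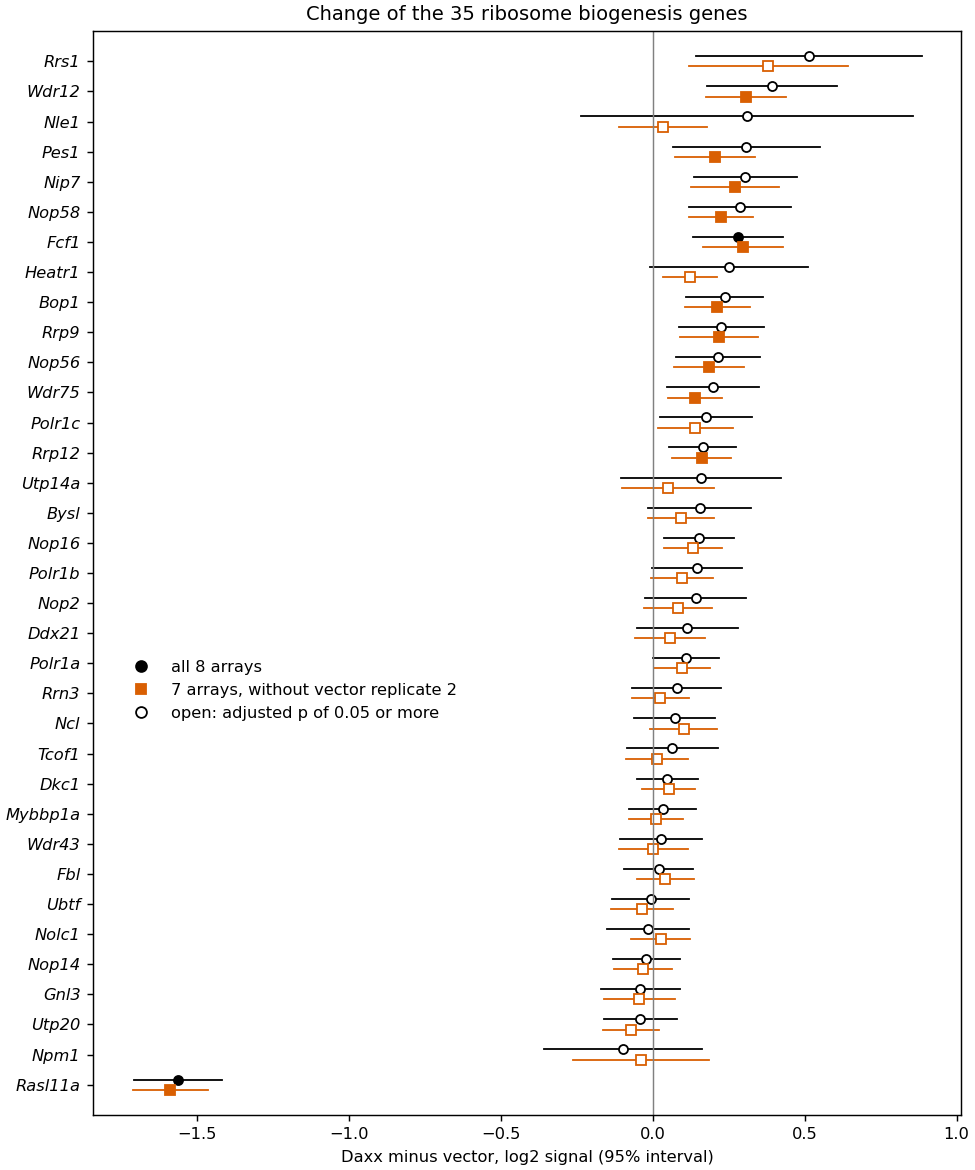
Change of each of the 35 genes, Daxx minus vector in log2 signal, with its 95% interval from limma, on all 8 arrays (black circles) and on 7 arrays without vector replicate 2 (orange squares); filled symbols had an adjusted p below 0.05. Rasl11a stands alone at the lower left, and 10 genes are filled to the right of 0 on 7 arrays against 1 on 8.

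For 26 of the 35 genes the lowest vector value came from replicate 2, as it did for 39.3% of all genes. Averaged over the genes without Rasl11a, that array read 9.42. Vector replicates 1, 3 and 4 read between 9.56 and 9.63, and the 4 Daxx arrays between 9.67 and 9.71, so the Daxx arrays lay above all vector arrays in that mean. With Rasl11a included they did not separate: vector replicate 4 and DaxxB replicate 2 both read 9.66. For single genes, 15 of 35 had all 4 Daxx values above all 4 vector values, where 8.02% of all genes did, and 1 had them below, where 6.79% did. On 7 arrays the counts were again 15 and 1, where 11.5% and 12.9% of all genes did.

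DaxxA and DaxxB were then each set against the vector arrays, which they share, in a fit of 3 groups. Rasl11a fell by 1.64 in DaxxA (limma adjusted p = 0.000143) and fell by 1.49 in DaxxB (adjusted p = 0.000204), and no other member passed in either. Of all genes 1.97% passed in DaxxA (0.522% higher, 1.45% lower) and 2.69% in DaxxB (0.767% higher, 1.92% lower). On 7 arrays, without vector replicate 2, 5 rose and 1 fell in DaxxA and 10 rose and 1 fell in DaxxB, where 11.3% of all genes (4.46% higher, 6.8% lower) and 20.5% (10.9% higher, 9.53% lower) passed. Rrs1 then had a change of 0.26 in DaxxA (adjusted p = 0.236) and 0.50 in DaxxB (adjusted p = 0.015). Nop56 had a change of 0.13 and 0.24 (adjusted p = 0.158 and 0.00818), and Polr1c of 0.084 and 0.20 (adjusted p = 0.441 and 0.0364). Nip7 had the larger value in DaxxA, 0.35 against 0.19 (adjusted p = 0.00482 and 0.0553).

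Those differences between the Daxx groups were tested directly. In limma 0 of the 35 genes differed between DaxxA and DaxxB on 8 arrays (0% of all genes, and 1 member at an unadjusted p below 0.05), and 0 on 7 arrays (2.15% of all genes, 0.787% higher in DaxxA and 1.36% lower, and 4 members at an unadjusted p below 0.05). The difference for Rasl11a was -0.15, with an interval from -0.33 to 0.029. The widest was Npm1, 0.32 higher in DaxxA (0.027 to 0.62, adjusted p = 1.0 on 8 arrays and 0.0688 on 7), and Rrs1 had -0.25 (-0.79 to 0.30). With 2 arrays in each, these intervals do not show that the groups are alike.

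The rest of the pathway, 154 measured genes in 5 lists, had 8 members higher and 1 lower in the Daxx arrays, 5.84% against 4.52% of all genes, with a median change of 0.072. On 7 arrays 23 were higher and 4 lower, where 12.8% of all genes passed (5.26% higher, 7.57% lower), with a median of 0.041. Pno1, a factor of late small subunit maturation, read 9.07, 8.93, 9.10 and 9.19 in vector replicates 1 to 4, 9.53 and 9.50 in DaxxA and 9.45 and 9.49 in DaxxB. It rose by 0.42 (SE 0.0637, limma adjusted p = 0.00724), with no overlap and with every array left out in turn. Mrto4, a stand-in for a stalk protein during large subunit assembly, read 7.89, 7.91, 7.93 and 7.95 in vector replicates 1 to 4, 8.20 and 8.18 in DaxxA and 8.19 and 8.25 in DaxxB. It rose by 0.29 (adjusted p = 0.00949), also with every array left out, and these were the 2 of the 9 for which that held.

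The other 7 genes passed with 1 or 2 of the 8 arrays left out. Among small subunit factors, 3 of 49, Dcaf13 rose by 0.29 (limma adjusted p = 0.02) and Emg1, an rRNA methyltransferase, by 0.25 (adjusted p = 0.0422). Among large subunit factors, 4 of 50, Ebna1bp2 rose by 0.29 (adjusted p = 0.0393), the helicase Ddx24 by 0.30 (adjusted p = 0.0486) and Zfp622 by 0.30 (adjusted p = 0.042). Among 22 nucleases and exosome genes Pop1, a subunit of RNase MRP and RNase P, rose by 0.33 (adjusted p = 0.0359). The 1 that fell was Naf1, of 14 snoRNP and assembly genes, which loads the H/ACA particle: it read 9.82, 10.01, 9.78 and 9.99 in vector replicates 1 to 4, 9.65 and 9.63 in DaxxA and 9.52 and 9.57 in DaxxB and fell by 0.30 (adjusted p = 0.0462). None of 19 other polymerase I subunits and factors passed (2 at an unadjusted p below 0.05), and 2 rose on 7 arrays, Polr1e (0.22) and Sirt7 (0.32).

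**Figure D4:**
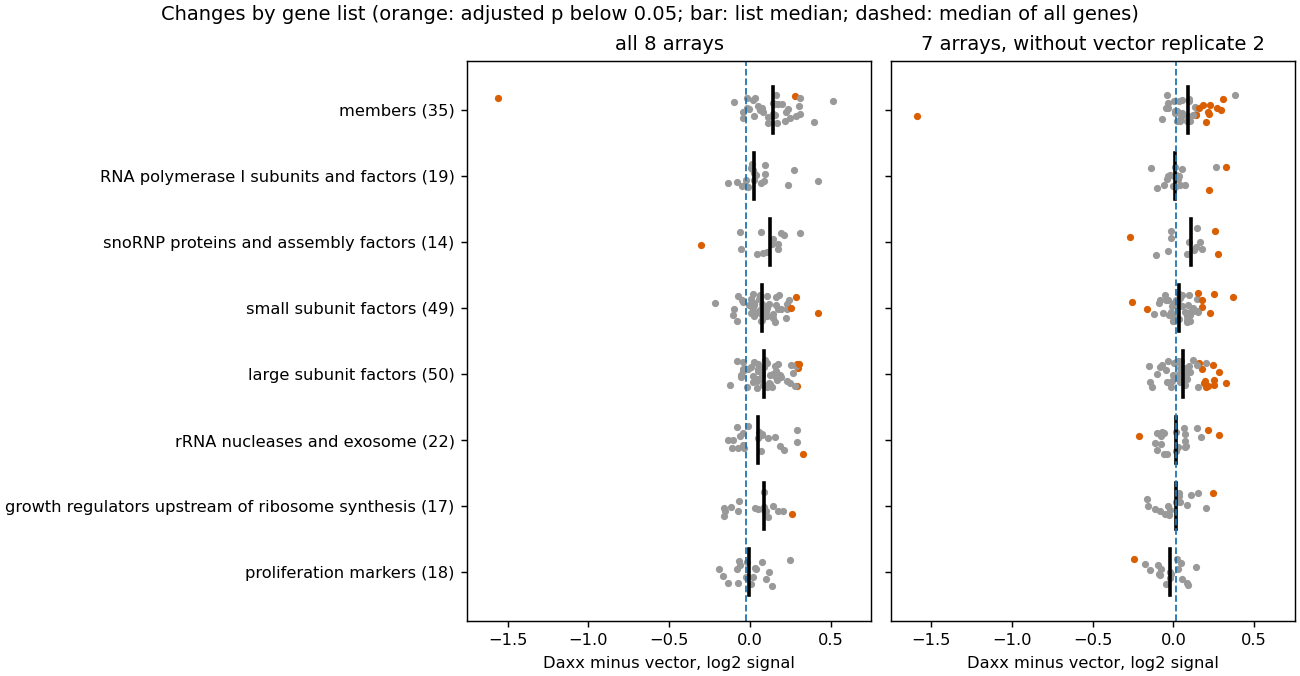
Change in log2 signal, Daxx minus vector, of each gene (points) in the 35-gene set, 5 lists of other ribosome biogenesis genes, upstream growth regulators and proliferation markers, on all 8 arrays (left) and without vector replicate 2 (right). Orange points passed an adjusted p of 0.05, bars are list medians and the dashed line is the median of all genes; the median of the 35 genes is 0.14 on the left and 0.092 on the right, and that of the proliferation markers is near 0.

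Genes upstream of the pathway were read the same way. Myc, the best known activator of these genes, read 10.38, 10.14, 10.39 and 10.42 in vector replicates 1 to 4, 10.38 and 10.37 in DaxxA and 10.53 and 10.44 in DaxxB, with overlap between the groups and a change of 0.10 (limma adjusted p = 0.646), or 0.033 on 7 arrays. Its partner Max had a change of 0.11 (adjusted p = 0.633, and 0.039 on 7 arrays) and Mtor, a growth kinase, of 0.20 (adjusted p = 0.144). Of 17 measured genes in that list 1 passed, which is 5.88% and near the 4.52% of all genes. It was Akt1, a kinase of growth factor signalling, which rose by 0.26 (adjusted p = 0.0184) on 8 arrays. Akt1 passed in 2 of the 8 fits with 1 array left out. Of 18 proliferation markers 0 passed in limma on 8 arrays (3 at an unadjusted p below 0.05), with a median change of -0.0080. On 7 arrays the median was -0.021, and 1 fell, Top2a (-0.25), where 7.57% of all genes fell. All Daxx values lay above all vector values for 2 of the 18 and below for 4, as for 8.02% and 6.79% of all genes. On 7 arrays these were 2 and 6, against 11.5% and 12.9%. As a mean, those markers read 10.85 on vector replicate 2, between 10.95 and 10.97 on replicates 1, 3 and 4, and between 10.91 and 10.94 with Daxx, and their part in the results was not tested.

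Of 6 relatives of Rasl11a 0 passed in limma on 8 arrays, also 0 at an unadjusted p below 0.05. The closest relative by name, Rasl11b, read 6.97, 6.68, 6.91 and 7.31 in vector replicates 1 to 4, 6.96 and 6.68 in DaxxA and 6.83 and 6.72 in DaxxB, with a change of -0.17 (adjusted p = 0.626), or -0.27 on 7 arrays. On 7 arrays Rerg fell by 0.23 (adjusted p = 0.0135). Fibroblast markers were not level between the conditions either: 3 of 15 fell, Pdgfrb (-0.70), Pdgfra (-0.82) and Col6a1 (-0.28), and Col1a2 rose (0.31). That is 26.7% of them, where 4.52% of all genes passed, 1.8% higher and 2.73% lower. Averaged over the 15, the level ran from 9.14 to 9.24 with vector and from 8.98 to 9.10 with Daxx, and its part in the values above was not tested.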

How the data were processed

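The deposited values are log2 signals that the authors made with Affymetrix Expression Console and RMA, per the submitters' processing notes. RMA corrects for background, normalizes the arrays to each other and merges each probe set's probes. The deposited values still differed in distribution, with an interquartile range of 2.79 in vector replicate 2 against 3.31 to 3.39 in the others. Differences near background are compressed in such values. No version or genome build is given in the sources used here. Of 35556 probe sets, 21789 had 1 gene symbol in the platform annotation. The brightest for each of 19938 genes was used. Differences were fitted over all genes with limma 3.58.1 in R 4.3.3 (lmFit, eBayes, Benjamini-Hochberg adjustment): 2 conditions, or 3 groups with 1 shared spread. The fits were tested on simulated data. Arrays give no depth, and their number limits the precision.

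The members and lists were chosen with earlier results of these data known, among them the fall of Rasl11a. The genes given array by array are those called with 8 arrays or with any 1 left out, in any comparison with vector, and the 3 with the smallest change. Of each other list the called genes, up to 4 by adjusted p, are named. Others named, such as Myc, Max, Mtor, Rasl11b, Rerg, Top2a, Polr1e and Sirt7, were chosen after their values were seen. Promoters came from RefSeq. Alternatives were each array left out, a replicate block, a variance trend, array weights, renormalization, centring, a filter on dim probe sets, means of probe sets, a 3-group fit and a permutation test.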

Additional observations from a re-analysis of the deposited data

Results flagged for a closer look

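Within the 4 vector arrays or the 4 Daxx arrays, 8 of the 70 sets of values for the 35 genes had 1 array far from the others by Dixon's test, where chance gives about 5%. In 6 of the 8 that array was vector replicate 2. It was low for Nle1 (6.10, next 7.16), Heatr1 (8.66, next 9.13), Wdr75 (9.71, next 9.93) and Rasl11a (10.63, next 10.74). It was high for Npm1 (12.18, next 11.97) and Nolc1 (10.65, next 10.50). The other 2 were Fcf1 in vector replicate 3 (6.42, next 6.58) and Utp20 in DaxxA replicate 1 (9.66, next 9.60). The gap for Rasl11a was 0.11, small beside its change of -1.56.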

How the results depend on the processing

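Rasl11a fell under each alternative run for Daxx minus vector, and was not called only by the permutation test, which could call no gene. For Daxx minus vector the 2 members called became 1 to 11 with an array left out (11 without vector replicate 2), 7 with a variance trend, 15 with array weights, 7 after renewed quantile normalization, 1 with centred arrays and 8 without dim probe sets, a setting that tests fewer genes. Of all genes 2.24% to 12.8% passed with an array left out. In the last 5 settings 6.46%, 16.2%, 7.03%, 3.59% and 10.3% did, against 4.52% in the main fit. For DaxxA the 1 call became 1 to 6 with a vector array left out, where 0.868% to 11.3% of all genes passed. It became 9 with weights, 4 after renormalization and 3 without dim probe sets (13.6%, 3.31% and 4.62% of all genes). For DaxxB the 1 call became 1 to 11 with a vector array left out, where 1.06% to 20.5% of all genes passed. It became 2 with the trend, 12 with weights, 2 after renormalization and 2 without dim probe sets (4.52%, 21.3%, 5.2% and 7.18% of all genes). For DaxxA minus DaxxB limma called 0 members throughout. The 9 other pathway genes became 2 to 27 with an array left out, 15 with the trend, 32 with weights and 16 after renormalization. They became 4 with centring, 16 without dim probe sets and 3 in the 3-group fit. In the 3-group fit 4.05% of all genes passed, and the other shares are those given above for Daxx minus vector. The cause was not tested.

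The replicate numbers are shared between groups, but nothing in the labels pairs them. Deviations of same-numbered arrays correlated at 0.0963 (DaxxA and DaxxB), 0.133 and 0.0369 (vector with each) across genes. With a replicate block, 1 member passed for Daxx minus vector, Rasl11a and not Fcf1 (0.813% of all genes). For DaxxA 0 passed and for DaxxB 0 (0% of all genes in each), and 0 other pathway genes.

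Changes near 0 turned sign in 13 fits, none of them called. Nop14 gave 0.0070 with the replicate block and 0.00099 with centring. Utp20 gave 0.0048 with the block. Without DaxxB replicate 1 Npm1 gave 0.0031 (-0.17 to 0.0031 over the arrays left out) and Wdr43 -0.0015 (-0.0015 to 0.062). Nolc1 (-0.035 to 0.025) gave 0.025 without vector replicate 2, 0.0084 without DaxxA replicate 2, 0.027 with weights and 0.0057 with centring. Ubtf (-0.036 to 0.020) gave 0.020 without vector replicate 1, 0.010 without DaxxA replicate 2, 0.0029 without DaxxB replicate 2 and 0.015 with centring.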

Other observations

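The genes beside Rasl11a on its chromosome, in the order of the RefSeq table of GRCm38.p6, were read after its fall was seen. The nearest measured neighbours are Rpl21, a ribosomal protein gene, and Gtf3a, the factor that starts 5S ribosomal RNA transcription. Gtf3a read 9.37, 9.30, 9.36 and 9.37 in vector replicates 1 to 4, 9.42 and 9.37 in DaxxA and 9.44 and 9.42 in DaxxB, a change of 0.063 (limma adjusted p = 0.633), and Rpl21 had a change of -0.062 (adjusted p = 0.707). Further out, Usp12 had a change of -0.20 (adjusted p = 0.199, and -0.23 with 0.0318 on 7 arrays). Mtif3, Lnx2, Gpr12 and Polr1d, itself a polymerase subunit gene, had adjusted p-values from 0.631 to 0.864. None of the 7 measured neighbours passed on 8 arrays.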
